A study of Mus musculus with 24 samples.

Results

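Undifferentiated SmcHD1-mutant (KO) mouse embryonic stem cells were compared with the same cell line after 7 days of neural differentiation. RNA of all genes was measured by RNA-seq, as FPKM (fragments mapped to a transcript, scaled by its length and by the mapped fragments of the library). The genes compared were those outside the X and Y chromosomes whose FPKM averaged 1 or more across 3 KO mESC libraries and 3 KO day 7 libraries. These were 11526 of the 23119 genes listed. Of them 11525 were tested, because Serbp1 had a failed estimate in KO mESC replicate 3. Another 5248 genes outside X and Y were above 0 in at least 1 of the 6 libraries but under the mean of 1, and 5254 were listed at 0 in all 6.

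The series follows X-chromosome inactivation as JB4/EI7HZ2 cells differentiate, in WT and KO lines at 4 stages (mESCs, day 7, day 9 and neural stem cells), with 3 replicates for each of 8 groups. JB4/EI7HZ2 mESCs are female, with 1 X from JF1 and 1 from B6, and carry CAGzeo at Hprt on the JF1 X and IRESneo at Eif2s3x on the B6 X, so that zeocin and G418 select for cells with both X chromosomes. KO cells were derived from it by CRISPR–Cas9 targeting of Smchd1, and each genotype is 1 line, and genotype and line therefore cannot be told apart. The mESCs grew in serum with 2i and LIF, inhibitors and a cytokine that hold the naive state. For day 7, cells were adapted to N2B27 with 2i and LIF, turned into epiblast-like cells for 2 days with Activin A, bFGF and KSR (a serum substitute), and then cultured as floating aggregates in medium with 15% KSR. KO and WT cells went through the same steps.

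Mouse ES cells in 2i and LIF resemble the preimplantation epiblast. Their identity rests on Oct4 (Pou5f1), Sox2 and Nanog together with naive factors such as Klf4, Esrrb and Tfcp2l1. When the inhibitors and LIF are withdrawn, the naive factors are switched off, a formative and then primed epiblast state follows with Otx2, Pou3f1 and Fgf5, and in the absence of mesoderm-inducing signals the cells acquire a neural plate identity with Sox1 and Pax6. SmcHD1 is a non-canonical SMC protein that binds the inactive X chromosome and several autosomal gene clusters and takes part in keeping them silent.

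The change was broad. At an adjusted p under 0.05 (limma on log2(FPKM + 1), Benjamini-Hochberg over 11525 genes), 7303 genes were called, which is 63.4% of those tested, 3300 higher at day 7 (28.6%) and 4003 lower (34.7%). The log2 fold change was 1 or more for 1653 of the genes called higher (14.3% of those tested) and -1 or less for 1351 of those called lower (11.7%). Libraries of both groups did not overlap for 70.5% of the genes tested. Summed FPKM came to 645968 to 674470 per library at day 7 and to 750580 to 802938 in mESCs. When every library was scaled to the same sum, higher genes made up 60.5% of the calls in place of 45.2% and the median log2 fold change was 0.11 in place of -0.09, so modest changes carry a direction that depends on the scaling. The filter needs only 1 high group: 828 tested genes had a group mean of at least 1 only at day 7 and 510 only in mESCs, and such genes had to differ. Of the 10187 genes with a mean of at least 1 in both groups, 2539 were called higher and 3549 lower. In these bulk libraries, fewer cells of a type and less RNA per cell cannot be told apart.

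**Figure D1:**
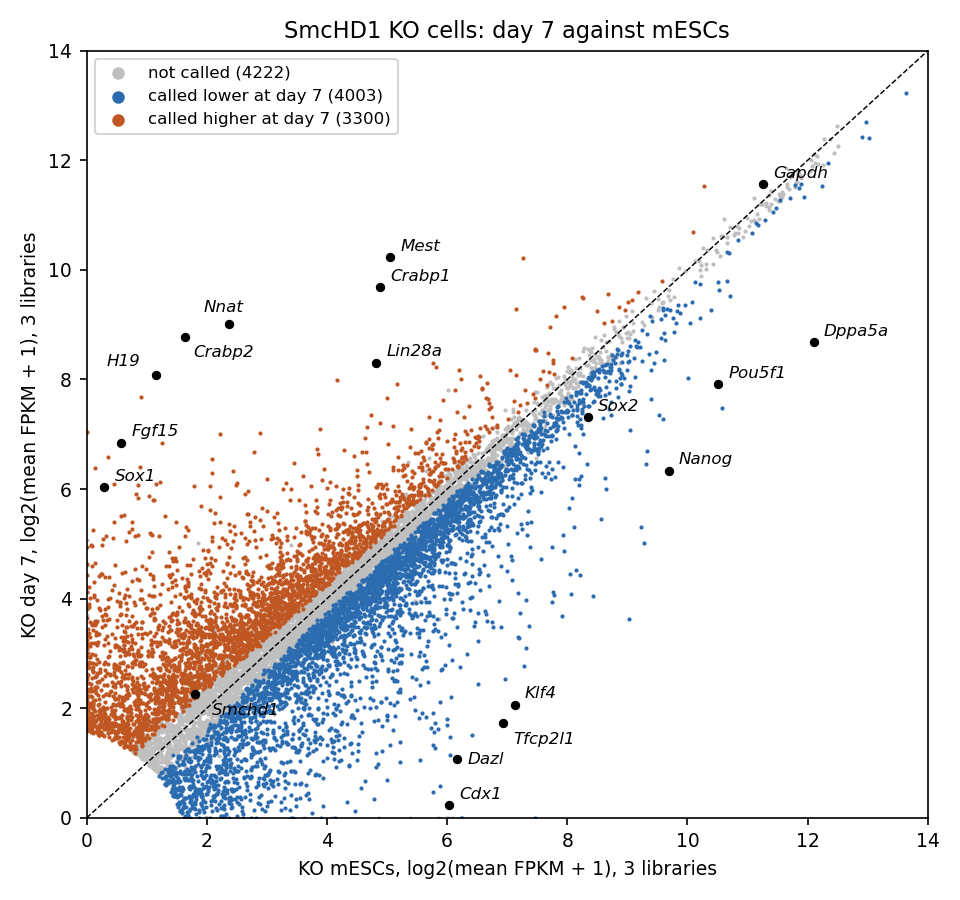
Each point is 1 of 11525 genes, placed by its log2(mean FPKM + 1) in 3 KO mESC libraries (horizontal axis) and 3 KO day 7 libraries (vertical axis); orange points were called higher, blue points lower and grey points not called, and the dashed line marks equal values. Called genes lie on both sides, with Crabp2, H19 and Nnat far above the line and Cdx1, Dazl and Tfcp2l1 far below it.

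Libraries of 1 group resembled each other closely. Pearson's r of log2 values was 0.981 to 0.983 among KO mESC libraries, 0.982 to 0.987 among KO day 7 libraries and 0.829 to 0.846 between the groups, over genes, which are not independent. Relative read numbers, from the step that 1 read is worth in low genes, were 0.810 to 0.929 in mESCs and 0.918 to 1.15 at day 7, with the median of the 24 libraries at 1. Smchd1 itself, on chromosome 17, read 2.71, 2.97 and 1.82 FPKM in the mESC libraries and 3.63, 3.95 and 3.82 FPKM at day 7. The groups did not overlap, and Smchd1 was called higher at day 7 (log2 fold change 0.47, SE 0.13, adjusted p = 0.00286), at levels below the 13.5 FPKM (mean) of WT mESCs and 24.5 FPKM of WT day 7 cells.

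The stage labels were checked against markers. The summed FPKM of 6 mESC markers (Pou5f1, Nanog, Sox2, Fgf4, Zfp42, Esrrb) was 2671 to 3178 in mESCs and 426.5 to 582.5 at day 7. The 6 markers of early neurectoderm (Sox1, Pax6, Zfp521, Nes, Hes5, Lhx2) summed to 6.88 to 9.13 in mESCs and 167 to 177 at day 7. The sums of defining markers of other cell types are given next. Other genes on the lists for these cell types were called higher, among them the keratins Krt8, Krt18, Krt19 and Krt7 (66.95, 65.9, 34.7 and 11.03 FPKM at day 7), Pax3, Pax7 and Ednrb on the neural crest list (5.98, 2.31 and 2.88 FPKM) and Cxcr4 on the endoderm list (34.1 FPKM). The 6 endoderm markers (Gata4, Gata6, Sox17, Foxa2, Afp, Ttr) summed to at most 1.48 FPKM at day 7, with each mean under 1. The 6 mesoderm markers (T, Tbx6, Mesp1, Meox1, Hand1, Kdr) summed to 3.13 to 6.01 FPKM, with Mesp1 at 0 in all 3 libraries, against 12.3 to 19.7 FPKM in mESCs, where T was the largest part. Sums at day 7 were 5.47 to 9.03 FPKM for 6 neural crest markers, 2.33 to 3.52 for 4 surface ectoderm markers, 0.394 to 3.22 for 4 trophoblast markers and 5.18 to 8.22 for 4 blood and endothelium markers. Each of these was higher in mESCs (10.5 to 28.7, 14.4 to 20.45, 15.3 to 27.0 and 30.7 to 38.8 FPKM), through Foxd3, Grhl3, Cdx2 and Pecam1, which mESCs express themselves. The erythroid factor Gata1 was at 0 in all 6 libraries, while the globins Hbb-bh1 and Hba-x and the endothelial Cdh5 were higher in every day 7 library, with values given below. Of 3 glial markers, Fabp7 and Slc1a3, which radial glia also express, were present at day 7, while the astrocyte filament Gfap stayed at or under 0.331 FPKM.

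Naive pluripotency factors were lower at day 7 almost throughout. Of 15 tested, 14 were called lower (93.3%, against 34.7% of all genes tested), each by at least 1 on the log2 scale, and none higher. The median log2 fold change of the list was -3.33, against -0.09 over all genes tested. The exception was Gbx2, a homeobox gene used both in naive cells and at the midbrain–hindbrain boundary, at 21.01 to 29.6 FPKM (log2 fold change 0.50, SE 0.29, adjusted p = 0.135), which was called higher with the 6 KO libraries alone (adjusted p = 0.0213), with libraries scaled to the same sum (adjusted p = 0.0382) and with a replicate block (adjusted p = 0.0172). Tfcp2l1, a transcription factor that LIF and 2i sustain, read 109, 122 and 131 FPKM in the mESC libraries and 3.05, 1.97 and 1.899 FPKM at day 7. Klf4, a Krüppel-like factor downstream of LIF, read 137, 156 and 122 FPKM in the mESC libraries and 5.54, 2.27 and 1.75 FPKM at day 7. Every day 7 library of both lay far below every mESC library (log2 fold change -5.22, SE 0.19, adjusted p = 1.74e-15 and log2 fold change -5.15, SE 0.36, adjusted p = 1.32e-10). Klf5, Tbx3, Esrrb and Prdm14 went from 154 to 5.83, 53.6 to 1.499, 213 to 14.3 and 58.3 to 3.34 FPKM in mean.

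Core factors were mostly lower too. Of 14 tested genes shared by naive and primed pluripotency, 12 were called lower (85.7%, against 34.7% of all genes tested) and 1 higher. The median of the list was -2.24. Pou5f1 read 1322, 1532 and 1526 FPKM in the mESC libraries and 284, 248 and 189.6 FPKM at day 7. Sox2, which neural progenitors keep, read 326, 322 and 321 FPKM in the mESC libraries and 163, 162 and 148 FPKM at day 7. Nanog, listed together with Nanogpd, read 692, 859 and 917 FPKM in the mESC libraries and 96.2, 80.3 and 63.03 FPKM at day 7. In each of these 3 genes the groups did not overlap, and Sox2 had the smallest change (log2 fold change -1.03, SE 0.13, adjusted p = 6.72e-07), against log2 fold change -2.61, SE 0.21, adjusted p = 6.90e-10 for Pou5f1 and log2 fold change -3.36, SE 0.26, adjusted p = 4.85e-10 for Nanog; its locus overlaps Sox2ot and Mir1897. Dppa5a, one of the most abundant transcripts of the mESCs, had the largest loss in FPKM of all called genes, with 4702, 3742 and 4718 FPKM in the mESC libraries and 453, 427 and 343 FPKM at day 7. The gene that rose was Lin28a, which encodes an RNA-binding protein that blocks let-7 maturation. It read 22.3, 35.2 and 24.4 FPKM in the mESC libraries and 324, 316 and 309 FPKM at day 7 (log2 fold change 3.51, SE 0.19, adjusted p = 4.50e-13), a rise seen in every day 7 library.

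**Figure D2:**
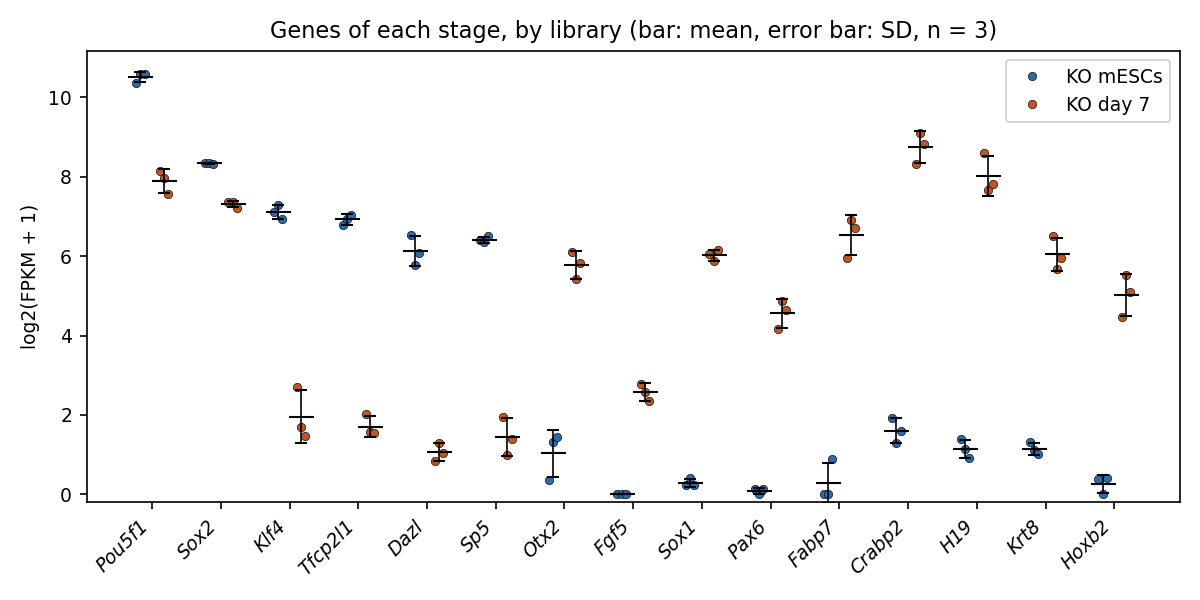
Values of 15 genes are shown as log2(FPKM + 1) for each KO mESC library (blue) and each KO day 7 library (orange), with the mean as a bar and the SD as error bar (n = 3). For every gene shown the 3 libraries of a group lie apart from those of the other group, and Sox2 has the smallest distance.

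LIF acts through STAT3 and is present in the mESC medium. Klf4, Tfcp2l1, Klf5 and Gbx2 are on both the naive list and the list of LIF and STAT3 targets and receptors, and so enter both counts. Gbx2 was called higher only with the 6 KO libraries alone, with libraries scaled to the same sum and with a replicate block. Of 14 tested members of the LIF and STAT3 list, 12 were called lower (85.7%, against 34.7% of all genes tested) and none higher (median -2.18). These included Stat3 itself (27.3 to 4.68 FPKM), the feedback inhibitor Socs3 (26.9 to 6.13), the receptor chains Lifr (6.42 to 1.32) and Il6st (44.1 to 9.98), and Bcl3, a nuclear I-kappa-B protein (23.9 to 0.593). Among 15 canonical Wnt targets, whose pathway a 2i inhibitor of GSK3 activates, 9 were called lower (60.0%, against the same 34.7%) and 3 higher. A mean of at least 1 FPKM only in mESCs was found for 3 of the 9. The Wnt list members Lef1, T and Cdx2 are counted again below, with genes of the primed epiblast, of mesoderm and of trophoblast. Cdx1, a caudal homeobox gene, read 75.7, 53.8 and 63.9 FPKM in the mESC libraries and 0.107, 0.269 and 0.134 FPKM at day 7. Sp5 read 83.6, 80.7 and 89.4 FPKM in the mESC libraries and 2.89, 0.987 and 1.64 FPKM at day 7, and Notum, a secreted Wnt deacylase, 44.2, 64.4 and 52.8 FPKM in the mESC libraries and 2.46, 1.83 and 1.599 FPKM at day 7. These 3 genes fell by 5.79, 4.97 and 4.20 on the log2 scale, and no day 7 library reached an mESC level. Axin2, a negative regulator of the pathway, fell too (28.2 to 15.7 FPKM, log2 fold change -0.82, SE 0.21, adjusted p = 0.00196). The 3 called higher were Sp8 (0.478 to 12.3 FPKM), Nkd1 (1.24 to 8.21) and Nkd2, whose call was lost without KO mESC replicate 2, KO day 7 replicate 1 or KO day 7 replicate 3 (adjusted p = 0.124, 0.0777 and 0.0592).

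The other 2i inhibitor blocks MEK. Of 16 tested genes of FGF and ERK feedback, 7 were called higher (43.8%, against 28.6% of all genes tested), 2 of them with a mean of at least 1 FPKM only at day 7, and 1 lower. Dusp6, a phosphatase of ERK, read 1.58, 4.197 and 1.09 FPKM in the mESC libraries and 22.4, 24.8 and 23.7 FPKM at day 7. Dusp4, another, read 0.486, 1.02 and 1.16 FPKM in the mESC libraries and 25.4, 21.95 and 21.8 FPKM at day 7. Both lay higher in every day 7 library (log2 fold change 3.02, SE 0.43, adjusted p = 6.37e-06 and log2 fold change 3.69, SE 0.33, adjusted p = 3.80e-09). Etv5, an ETS factor also tied to the mESC state, went the other way (214 to 29.7 FPKM, log2 fold change -2.81, SE 0.21, adjusted p = 2.23e-10). The antagonist Spry2 overlapped between groups (45.6 to 45.7 FPKM), as did the immediate early genes Fos (15.4 to 12.9 FPKM) and Egr1 (19.5 to 20.5 FPKM), both at or under 0.249 FPKM in mESC replicate 3; none of the 3 passed the test. Among 12 FGF ligands and receptors 8 were called higher, 5 of them with a mean of at least 1 FPKM only at day 7, and 2 lower. The ligands Fgf15, Fgf8, Fgf10 and Fgf5 were among the higher and Fgf4 and Fgf17 the lower: Fgf4 went from 101 to 11.1 FPKM, Fgf8 from 0.588 to 13.04 FPKM, and the receptors Fgfr1 and Fgfr2 from 18.3 to 63.3 and 1.65 to 14.4 FPKM.

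The germline list holds genes of meiosis and of the piRNA pathway that promoter methylation is known to silence as the epiblast forms, and naive mESCs transcribe many of them. Of 25 listed, 20 were tested, and of these 18 were called lower and 1 higher, against 34.7% of all genes tested called lower. Of the 18, 12 had a mean of at least 1 FPKM only in mESCs and had to be lower; of the 7 members with such a mean in both groups, 6 were called lower and none higher. Dazl, an RNA-binding protein of germ cells, read 91.2, 53.7 and 66.9 FPKM in the mESC libraries and 0.786, 1.44 and 1.06 FPKM at day 7. Fkbp6, a co-chaperone of the piRNA pathway, read 17.4, 21.6 and 29.1 FPKM in the mESC libraries and 0.695, 0.349 and 0.348 FPKM at day 7. Hormad1, of the meiotic chromosome axis, read 21.96, 27.6 and 25.9 FPKM in the mESC libraries and 2.91, 4.45 and 1.74 FPKM at day 7. In all 3 genes each day 7 library lay far below each mESC library. Brdt, a testis bromodomain protein, and Stk31, a kinase of spermatogenic cells, went from 4.54 to 0.272 and 4.83 to 0.470 FPKM. Syce1 of the synaptonemal complex (36.04 to 1.02 FPKM), Sohlh2 (62.5 to 2.51) and the retrogene Rpl10l (124 to 4.803), a near copy of Rpl10 whose reads may be shared with it, fell by 4.22, 4.20 and 4.41 on the log2 scale. Tdrkh, a tudor protein of the piRNA pathway, was the member called higher (0.530 to 9.599 FPKM, log2 fold change 2.78, SE 0.15, adjusted p = 7.89e-13). Smc1b, the meiotic cohesin subunit, did not pass the test (1.44 to 1.02 FPKM), except without KO mESC replicate 3 (adjusted p = 0.0446).

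The promoters of these genes were looked at for the E-box CACGTG, a palindrome (the same letters on both strands) that the repressor complex PRC1.6 reaches through its MGA and MAX subunits. In RefSeq windows from 250 bases before to 50 bases after the start (GRCm38.p6, the first window listed for a gene), it was present in 8 of the 18 germline genes with a window (44.4%) and in 1957 of 27025 windows of all genes (7.24%). The closer background is the genes tested, of which 8140 of 11525 had a window. The E-box was present in 10.7% of those 8140, and in 12.1% of the genes with a window called lower with a log2 fold change of -1 or less. With so many tested genes lacking a window the comparison is void, and nothing is read from the difference between these shares. A match is a stretch of letters and not a measured binding site. Windows are printed for the 4 called genes with an E-box and the largest falls, to show where the E-box lies. Capitals mark the E-box, and the sense strand of each gene is given from 5′ to 3′. They are Fkbp6 at chr5:135349995-135350294 (minus strand), Hormad1 at chr3:95559427-95559726 (plus strand), Brdt at chr5:107330944-107331243 (plus strand) and Stk31 at chr6:49395289-49395588 (plus strand).
Fkbp6: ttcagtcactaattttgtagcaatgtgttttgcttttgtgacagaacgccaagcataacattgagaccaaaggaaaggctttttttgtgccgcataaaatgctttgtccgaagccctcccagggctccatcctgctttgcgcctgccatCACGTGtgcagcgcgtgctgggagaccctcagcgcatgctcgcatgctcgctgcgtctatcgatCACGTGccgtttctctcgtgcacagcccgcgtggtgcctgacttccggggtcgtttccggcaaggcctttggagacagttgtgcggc
Hormad1: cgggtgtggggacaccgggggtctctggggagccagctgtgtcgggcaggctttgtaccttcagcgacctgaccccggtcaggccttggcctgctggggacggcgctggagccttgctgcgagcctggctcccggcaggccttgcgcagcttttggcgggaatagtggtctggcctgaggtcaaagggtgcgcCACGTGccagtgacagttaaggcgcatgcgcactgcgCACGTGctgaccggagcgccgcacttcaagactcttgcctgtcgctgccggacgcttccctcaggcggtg
Brdt: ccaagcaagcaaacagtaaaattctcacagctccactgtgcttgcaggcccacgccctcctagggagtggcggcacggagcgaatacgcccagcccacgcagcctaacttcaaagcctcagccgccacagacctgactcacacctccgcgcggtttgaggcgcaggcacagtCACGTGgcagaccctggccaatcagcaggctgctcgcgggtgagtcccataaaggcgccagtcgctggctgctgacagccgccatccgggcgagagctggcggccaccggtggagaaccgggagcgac
Stk31: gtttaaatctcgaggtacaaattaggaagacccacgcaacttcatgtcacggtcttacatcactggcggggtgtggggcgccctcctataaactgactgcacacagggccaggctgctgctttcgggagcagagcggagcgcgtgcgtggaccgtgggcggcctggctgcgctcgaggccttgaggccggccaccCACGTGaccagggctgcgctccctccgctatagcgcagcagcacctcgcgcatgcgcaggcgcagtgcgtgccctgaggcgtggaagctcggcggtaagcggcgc
The Fkbp6 and Hormad1 windows hold 2 E-boxes each, those of Brdt and Stk31 hold 1. The windows of Dazl, Sohlh2, Syce1 and Rpl10l, which fell most besides Fkbp6, hold none.

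Of 14 tested genes of DNA methylation and its removal, 6 were called higher (42.9%, against 28.6% of all genes tested) and 5 lower (35.7%, against 34.7%). The de novo methyltransferase gene Dnmt3b read 34.9, 42.7 and 33.6 FPKM in the mESC libraries and 100.1, 80.4 and 60.3 FPKM at day 7 (log2 fold change 1.07, SE 0.24, adjusted p = 4.98e-04). The maintenance enzyme Dnmt1 did not pass the test (98.1 to 87.8 FPKM, log2 fold change -0.16, SE 0.15, adjusted p = 0.379). Among the TET dioxygenases, which oxidise methylcytosine, Tet1 and Tet2 were lower (15.5 to 4.92 and 17.9 to 2.29 FPKM) and Tet3 higher (2.03 to 8.69 FPKM), so that Tet3 was the most abundant of the family at day 7. Zfp57, a zinc finger protein that protects imprints, and Dppa3 (Stella) fell with the naive factors (188 to 25.3 and 159.5 to 35 FPKM).

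Of 15 tested genes of the primed epiblast, 11 were called higher (73.3%, against 28.6% of all genes tested) and 2 lower (13.3%, against 34.7%); 4 of the 11 had a mean of at least 1 FPKM only at day 7. Otx2, a homeobox factor of the epiblast and the anterior brain, read 0.284, 1.49 and 1.703 FPKM in the mESC libraries and 67.6, 41.7 and 55.5 FPKM at day 7 (log2 fold change 4.74, SE 0.27, adjusted p = 1.16e-12). Pou3f1 (Oct6) read 3.69, 2.78 and 3.27 FPKM in the mESC libraries and 34.4, 35.4 and 27.3 FPKM at day 7. Fgf5 was listed at 0 in all 3 mESC libraries and at 5.91, 4.97 and 4.06 FPKM at day 7 (adjusted p = 1.80e-10). Sall2, a zinc finger gene, and N-cadherin (Cdh2) went from 1.33 to 68.8 and 11.1 to 74.6 FPKM. Those called lower were Foxd3 (16.6 to 2.68 FPKM), a forkhead gene used in ES cells and again in neural crest, and Lef1 (32.8 to 18.1 FPKM), whose call was lost with a pseudocount of 0.1 (adjusted p = 0.0585).

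Early neurectoderm genes are those of the neural plate and its first progenitors. Of 21 listed 18 were tested. Of the 18, 15 were called higher, each by at least 1 on the log2 scale, and 1 lower (28.6% of all genes tested were called higher). Of the 15, 11 had a mean of at least 1 FPKM only at day 7 and had to be higher; of the 7 members with such a mean in both groups, 4 were called higher and 1 lower. Sox1, the SoxB1 factor that marks the neural plate, read 0.169, 0.322 and 0.184 FPKM in the mESC libraries and 64.9, 57.9 and 70.3 FPKM at day 7 (log2 fold change 5.74, SE 0.19, adjusted p = 4.06e-16); its locus overlaps Gm5607. Pax6, a paired homeobox gene of neural progenitors, read 0.0915, 0 and 0.0998 FPKM in the mESC libraries and 16.9, 28.5 and 23.99 FPKM at day 7 (log2 fold change 4.48, SE 0.24, adjusted p = 5.80e-13). Irx3 of the Iroquois family read 0.402, 0.383 and 0.329 FPKM in the mESC libraries and 61.5, 68.4 and 72.7 FPKM at day 7. Each was near 0 in all mESC libraries and well above it in all day 7 libraries. Zfp521, which promotes the entry into the neural lineage, and the SoxC factors Sox4 and Sox11 went from 0.0968 to 10.5, 1.05 to 57.3 and 1.47 to 44.4 FPKM. The member called lower was Hesx1, a repressor of the anterior neural plate and of naive cells (3.88 to 1.07 FPKM). Zic5 and Ncam1 did not pass the test (14.2 to 11.1 and 5.64 to 6.08 FPKM).

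The 12 called genes with the largest rises, among 2393 eligible, were Crabp2, H19, Ptn, Nnat, Fgf15, Fabp7, Cyp26c1, Sox1, Irx3, Dbn1, Cntfr and Car14. Ptn, which encodes the heparin-binding growth factor pleiotrophin, read 0.950, 1.02 and 0.648 FPKM in the mESC libraries and 157, 219 and 233 FPKM at day 7 (log2 fold change 6.76, SE 0.21, adjusted p = 2.57e-16). Fgf15, an FGF of the early neural tube, read 0.539, 0.768 and 0.147 FPKM in the mESC libraries and 119, 95.6 and 128 FPKM at day 7 (log2 fold change 6.29, SE 0.23, adjusted p = 1.08e-15). The remaining genes of neural cells among them were Fabp7, the fatty acid binding protein of radial glia (0.281 to 95.1 FPKM), Dbn1, the actin-binding drebrin (1.38 to 113), and Cntfr, the receptor of ciliary neurotrophic factor (0.848 to 84.03). Car14, a carbonic anhydrase, went from 0.809 to 66.5 FPKM and overlaps Aph1a.

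Among radial glia and neural stem genes 9 of 12 were called higher (75.0%, against 28.6% of all genes tested). The 3 called lower made up 25.0%, under the 34.7% of all genes tested. A mean of at least 1 FPKM only at day 7 was found for 4 of the 9. Nes, the intermediate filament nestin, read 5.51, 5.06 and 7.68 FPKM in the mESC libraries and 24.5, 33.7 and 31.2 FPKM at day 7 (log2 fold change 2.13, SE 0.25, adjusted p = 2.61e-07). Msi1 and Prom1, an RNA-binding and a membrane protein of neural stem cells, went from 13.3 to 98.9 and 3.24 to 34.1 FPKM, and Sox9 from 0.0183 to 6.63 FPKM. Nfib, Olig1 and Vim were called lower (1.92 to 0.0957, 3.12 to 1.22 and 126 to 93.9 FPKM). The call for Vim was lost without KO mESC replicate 2, KO day 7 replicate 1 or KO day 7 replicate 3 (adjusted p = 0.114, 0.112 and 0.0569) and with libraries scaled to the same sum (adjusted p = 0.25). Of 24 listed genes of neuronal commitment 11 were tested, 6 called higher (54.5%) and 4 lower (36.4%, near the 34.7% of all genes tested). In this list 3 of the 6 and 3 of the 4 had a mean of at least 1 FPKM in that group only. Elavl3 and Gap43 went from 0.822 to 6.86 and 0.860 to 6.71 FPKM, and Neurog1 fell from 6.47 to 0.331 FPKM. The proneural genes Neurog2 and Neurod1 were at or under 0.413 FPKM in every library.

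Homeobox factors and signals pattern the neural axis. Of 15 midbrain and hindbrain genes tested, 11 were called higher (73.3%, against 28.6% of all genes tested) and 2 lower (13.3%, against 34.7%). But each of the 11 had a mean of at least 1 FPKM only at day 7 and so passed the filter through the group in which it was high. The values below are a description. The hindbrain genes Egr2 (Krox20) and Hoxa2 read 0.313, 2.31 and 0 FPKM in the mESC libraries and 11.4, 18.1 and 21.1 FPKM at day 7 and 0.146, 0.139 and 0 FPKM in the mESC libraries and 14.01, 32.05 and 26.1 FPKM at day 7, respectively. Wnt1 and Tal2 of the midbrain were listed at 0 in all 3 mESC libraries and at 11.7, 4.12 and 18.8 and 26.2, 18.1 and 17.4 FPKM at day 7. En1 read 0.643, 1.398 and 0.501 FPKM in the mESC libraries and 17.8, 5.21 and 21.8 FPKM at day 7 (log2 fold change 2.94, SE 0.38, adjusted p = 7.98e-07), and Fgf8 of the isthmus 0.537, 1.23 and 0 FPKM in the mESC libraries and 10.4, 14.7 and 14.01 FPKM at day 7. Wnt1 and En1 were both lowest in day 7 replicate 2. En2 and Fgf17, also used at the isthmus, were called lower (4.44 to 1.72 and 6.08 to 1.75 FPKM). Emx2, a homeobox gene of the telencephalon, was listed at 0 in mESCs and at 4.36, 1.56 and 3.03 FPKM at day 7; both tested genes of the telencephalon list passed the filter only through day 7. Nkx2-1, Dlx1 and Dlx5 stayed at or under 0.229 FPKM in every library. Of 12 ventral genes 5 were tested, 3 called higher and 1 lower, all 4 with a mean of at least 1 FPKM in 1 group only. Those called higher were led by Nkx6-1 (listed at 0 in mESCs, 9.57, 6.39 and 8.21 FPKM at day 7) and Spon1 (0.0712 to 5.36 FPKM), while Shh itself was at or under 0.169 FPKM. Olig2 was the one called lower (2.299 to 0.730 FPKM, adjusted p = 0.0151), a call lost without KO mESC replicate 2 or KO day 7 replicate 1 (adjusted p = 0.0751 and 0.0533).

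Hox paralogues 1 to 4 pattern the hindbrain and neck, paralogues with higher numbers the trunk and tail. Of 12 genes of paralogues 1 to 4 with an entry, 5 had a higher and 7 a lower mean at day 7 than in mESCs, and 5 were under 1 FPKM in both. Of 27 genes of paralogues 5 to 13, 3 had a higher mean at day 7 (Hoxb5, Hoxb7 and Hoxb8), 22 a lower one and 2 the same. Of these 27, 25 had a mean under 1 FPKM at day 7, but 11 were under 1 in mESCs as well. In the test, 4 of 6 genes of the first group were called higher and 1 lower, and 9 of 9 of the second were called lower. Those 4 had a mean of at least 1 FPKM only at day 7, and the 1 and the 9 only in mESCs, so they passed the filter through 1 group and had to differ in that direction. Hoxb2 read 0.303, 0 and 0.330 FPKM in the mESC libraries and 21.02, 44.7 and 33.4 FPKM at day 7 (log2 fold change 4.76, SE 0.26, adjusted p = 1.13e-12). Hoxa10 was at 18.1, 7.29 and 16.4 FPKM in mESCs and listed at 0 in all 3 day 7 libraries (adjusted p = 5.41e-11). Hoxa7, Hoxa9, Hoxb9, Hoxc9, Hoxc10 and Hoxc12 were likewise at 0 at day 7, from means of 2.11 to 9.76 FPKM. In Hoxa9 and Hoxa10 the mESC replicate 2 had the lowest value. Hoxb1 and Hoxb3 were at 0 in mESCs and had means of 9.19 and 7.67 FPKM at day 7, and Hoxc4 was the paralogue under 5 that fell (3.92 to 0.287 FPKM).

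**Figure D3:**
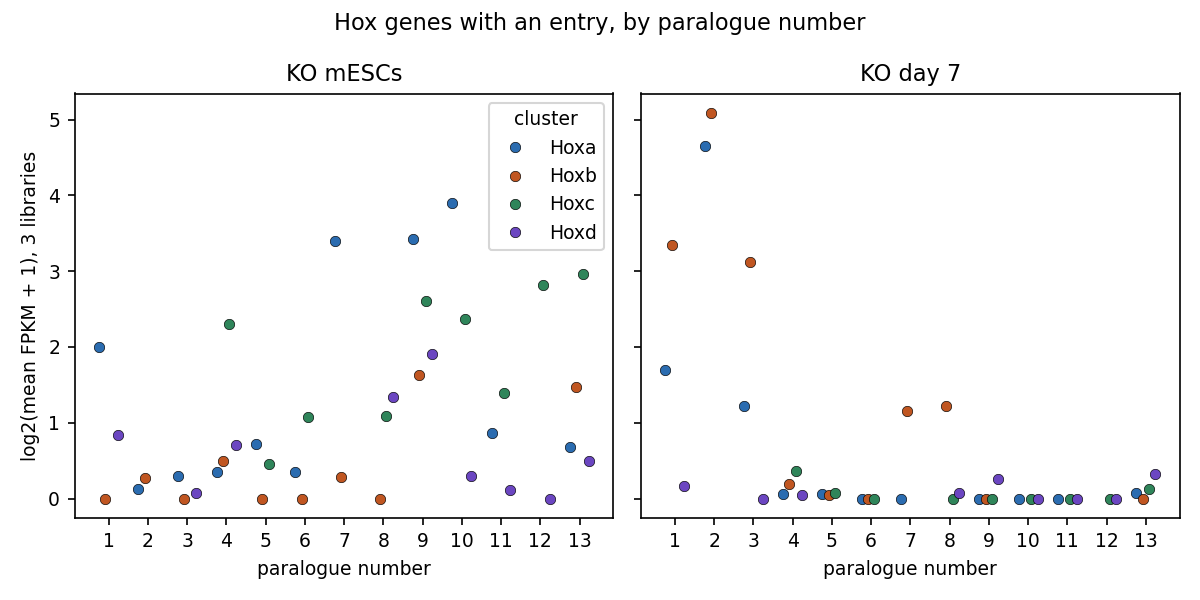
Each point is a Hox gene with an entry in the table, placed by paralogue number (horizontal axis) and log2(mean FPKM + 1) over 3 libraries (vertical axis), with colours for the Hoxa, Hoxb, Hoxc and Hoxd clusters. In KO mESCs (left) the highest means are those of paralogues 7 to 13, and at day 7 (right) those of paralogues 1 to 3.

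Retinoic acid is a vitamin A derivative that gives posterior identity to the neural tube and is bound in the cell by CRABP proteins and degraded by CYP26 enzymes. Of 16 tested genes of its pathway 11 were called higher (68.8%, against 28.6% of all genes tested) and 2 lower; 6 of the 11 and 1 of the 2 had a mean of at least 1 FPKM in that group only. Crabp2, at chr3:87752615-87757294 in mm9, had the largest rise of all eligible genes and read 2.79, 1.47 and 2.03 FPKM in the mESC libraries and 319, 551 and 449.5 FPKM at day 7 (log2 fold change 7.14, SE 0.25, adjusted p = 1.64e-15). Crabp1 read 38.9, 20.2 and 26.2 FPKM in the mESC libraries and 398, 1231 and 839.8 FPKM at day 7 (log2 fold change 4.71, SE 0.77, adjusted p = 4.59e-05), with day 7 libraries that differed among themselves more than those of Crabp2 did on the log2 scale. Cyp26c1 read 0.159, 0.152 and 0 FPKM in the mESC libraries and 58.8, 105 and 85.4 FPKM at day 7 (log2 fold change 6.21, SE 0.28, adjusted p = 4.13e-14). In all 3 genes, and in Hoxb2 and Hoxa2, day 7 replicate 1 was the lowest of its group and replicate 2 the highest. Cyp26a1 was at 0 in mESCs and at 18.2, 15.7 and 15.6 FPKM at day 7. Aldh1a2, which makes retinoic acid, was called lower (3.79 to 0.839 FPKM, log2 fold change -1.37, SE 0.38, adjusted p = 0.00347). The number called lower was 1 in place of 2 without KO mESC replicate 1 or 3 and without KO day 7 replicate 1, 2 or 3, each left out alone, and also with a pseudocount of 0.1, with no filter and with either scaling of libraries.

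Notch signalling keeps neural progenitors from differentiating through Hes factors. Of 17 tested genes 11 were called higher (64.7%, against 28.6% of all genes tested), 5 of them with a mean of at least 1 FPKM only at day 7, and 4 lower (23.5%, against 34.7%). The ligand Dll1 read 0.737, 0 and 0.657 FPKM in the mESC libraries and 11.5, 9.86 and 14.5 FPKM at day 7, and its modifier Lfng 0.623, 0.494 and 0.566 FPKM in the mESC libraries and 19.98, 20.6 and 23.8 FPKM at day 7. The effectors Hes5 and Hes3 read 0, 0.192 and 0 FPKM in the mESC libraries and 33.7, 25.4 and 31.6 FPKM at day 7 and 0.133, 0 and 0 FPKM in the mESC libraries and 13.3, 15.2 and 16.6 FPKM at day 7, respectively. No day 7 library of these 4 genes came near an mESC value, and Hes5 had a log2 fold change of 4.87 (SE 0.56). Notch3 rose and Notch4, the endothelial receptor, fell (2.79 to 22.4 and 14.9 to 1.5 FPKM). Among the 4 called lower, only the call of Notch4 held when libraries were scaled to the same sum, and 2 of the 4 remained without KO mESC replicate 1 or KO day 7 replicate 2. In the hedgehog pathway 6 of 10 tested genes were called higher (60.0%), 1 of them with a mean of at least 1 FPKM only at day 7, and 1 lower. The 6 were Smo, Gas1, Boc and Cdon, which act in receiving the signal at the membrane, Gli3, a transcription factor, and Sufu, an inhibitor of GLI proteins. Their means went as follows: Smo (9.59 to 63.3 FPKM), Gas1 (1.71 to 24.9), Boc (0.900 to 10.96), Cdon (2.39 to 8.82), Gli3 (3.35 to 16.4) and Sufu (9.07 to 27.6). The targets Gli1 and Ptch1 did not pass the test (0.841 to 1.199 and 11.98 to 10.8 FPKM), and their libraries overlapped between groups.

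In the BMP list 5 of 13 were called higher (38.5%, against 28.6% of all genes tested) and 4 lower (30.8%, against 34.7%), with a median of -0.06. The Id genes, targets of BMP that block differentiation factors, did not move one way: 2 were called higher and 1 lower. Id2 read 5.25, 7.49 and 4.84 FPKM in the mESC libraries and 96.8, 108 and 98.1 FPKM at day 7 (log2 fold change 3.91, SE 0.26, adjusted p = 3.66e-11), and Id1 2.44, 2.32 and 0.997 FPKM in the mESC libraries and 33.2, 26.7 and 29.3 FPKM at day 7 (log2 fold change 3.43, SE 0.64, adjusted p = 1.65e-04). Id3 did not pass the test (39.8 to 88.8 FPKM, adjusted p = 0.0517), with mESC libraries from 14.1 to 69.2 FPKM, and passed without KO mESC replicate 2 (adjusted p = 0.0138). Id4 was called lower (8.26 to 3.36 FPKM, log2 fold change -1.07, SE 0.33, adjusted p = 0.00698). Fst, a binding protein of activin and BMP, rose from 5.22 to 58.9 FPKM. Of 15 Nodal genes 5 were called higher (33.3%) and 6 lower (40.0%), near the same shares (median 0.02). Nodal itself, its co-receptor Tdgf1 and its inhibitor Lefty2 fell (46.3 to 12.2, 375 to 42.9 and 144 to 16.2 FPKM), as did Gdf3 (72.9 to 5.71) and Smad7 (34.7 to 3.33), while Smad3 (5.72 to 18.9 FPKM) and Foxh1 (17.1 to 44.8) rose.

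Of 21 listed genes of the primitive streak and mesoderm 7 were tested, 4 called lower (57.1%) and none higher. Over all genes tested, 34.7% were called lower and 28.6% higher, which is the background for every list in this paragraph. Among the 4, 1 had a mean of at least 1 FPKM only in mESCs. Brachyury (T) read 16.99, 9.47 and 9.84 FPKM in the mESC libraries and 0.719, 2.03 and 2.03 FPKM at day 7 (log2 fold change -2.34, SE 0.44, adjusted p = 1.24e-04), and Tcf15 went from 32.5 to 6.397 FPKM. Twist1 (1.73 to 3.67 FPKM, adjusted p = 0.0762) passed as higher under 4 alternatives, among them the 6 KO libraries alone (adjusted p = 0.00141) and a pseudocount of 0.1 (adjusted p = 0.0393). Of the members not tested, Hand1 was at 0 to 0.255 FPKM in mESCs and at 0.490 FPKM or more in all 3 day 7 libraries. Tbx6, Mesp2 and Lhx1 were likewise higher in each day 7 library than in any mESC library. Mixl1 and Evx1 went the other way and were lower in each day 7 library than in any mESC library. Mixl1 read 0.828 to 1.13 FPKM in mESCs and 0 to 0.0994 FPKM at day 7. Evx1 read 0.529 to 1.997 FPKM in mESCs and 0 to 0.155 FPKM at day 7. Gsc was also called lower (4.83 to 1.37 FPKM). The call of Meox1 as lower was lost without KO mESC replicate 2 or KO day 7 replicate 2 (adjusted p = 0.0762 and 0.0622). Of 20 endoderm genes 5 were tested, 3 called higher and 2 lower, of which 1 and 1 had such a mean in that group only. The one with the largest rise was Cxcr4, a chemokine receptor that neural progenitors use too (0.756 to 34.1 FPKM), and Hhex and Lama1 fell (2.96 to 0.502 and 11.2 to 3.83 FPKM). In the neural crest list 4 of 8 were called higher (Pax3, Pax7, Ednrb, Ets1) and 2 lower (Foxd3, Mitf); the 4 had a mean of at least 1 FPKM only at day 7, and 1 of the 2 only in mESCs. Of 3 trophoblast genes tested Cdx2 and Ascl2 were lower and Krt7, an epithelial keratin, higher; Krt7 passed the filter only through day 7 and 1 of the lower genes only through mESCs. Blood and endothelium had 3 genes tested, of which 1 higher and 1 lower gene passed in the same way: Pecam1 and Tek fell (34.3 to 4.68 and 1.91 to 0.335 FPKM), and the embryonic globin Hbb-bh1 was at 0 in mESCs and at 4.47, 2.55 and 2.54 FPKM at day 7. Not tested were Cdh5 of endothelium, at 0, 0 and 0.1245 FPKM in mESCs and 2.80, 1.32 and 1.37 FPKM at day 7, and the embryonic globin Hba-x, at 0 in mESCs and 2.08, 2.61 and 1.04 FPKM at day 7; both were higher in every day 7 library. No gene of 11 listed for the cleavage-stage embryo was tested, and Zscan4 genes were at or under 0.29 FPKM.

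Cadherins moved in both directions. E-cadherin (Cdh1) read 64.8, 67.8 and 75.5 FPKM in the mESC libraries and 30.4, 21.9 and 19.5 FPKM at day 7 and N-cadherin (Cdh2) 10.3, 10.8 and 12.4 FPKM in the mESC libraries and 68.5, 80.2 and 75.2 FPKM at day 7. One fell and the other rose with no overlap of libraries (log2 fold change -1.52, SE 0.17, adjusted p = 1.20e-07 and log2 fold change 2.64, SE 0.13, adjusted p = 7.46e-14). P-cadherin (Cdh3) fell from 18.4 to 3.61 FPKM, and Cdh6 and Cdh11 rose (0.0860 to 8.08 and 1.11 to 8.02 FPKM). In the list of 21 tested cadherin and junction genes 10 were called higher (47.6%, against 28.6% of all genes tested), 4 of them with a mean of at least 1 FPKM only at day 7, and 5 lower (23.8%, against 34.7%). Of the 16 members with such a mean in both groups, 6 were called higher and 5 lower. Zeb2, a repressor of E-cadherin listed with Mir5129, rose from 0.0154 to 9.94 FPKM. Of 8 tested genes of surface ectoderm and epithelia 4 were called higher, all keratins of simple epithelia, and 3 lower (median 1.63). Krt8 read 1.48, 1.15 and 1.03 FPKM in the mESC libraries and 89.3, 50.1 and 61.5 FPKM at day 7 (log2 fold change 4.90, SE 0.24, adjusted p = 1.48e-13) and its partner Krt18 3.25, 1.72 and 2.36 FPKM in the mESC libraries and 91.5, 49.1 and 57.2 FPKM at day 7 (log2 fold change 4.25, SE 0.24, adjusted p = 1.68e-12). For both, day 7 replicate 1 was the highest library. Krt19 and Krt7 rose from 1.13 to 34.7 and 0.102 to 11.03 FPKM, whereas the epithelial genes Epcam, Grhl3 and Tfap2c fell (128 to 30.9, 16.2 to 2.75 and 32.7 to 9.93 FPKM) and Krt5 and Krt14 of stratified epithelia were at or under 0.143 FPKM. Of 19 tested collagen and basement membrane genes 7 were called higher (36.8%, against 28.6% of all genes tested), all of them collagens or fibrillins and 4 of them with a mean of at least 1 FPKM only at day 7, and 9 lower (47.4%, against 34.7%), with a median of -0.02. Among the 9 were fibronectin (Fn1, 168 to 41.02 FPKM), nidogen (Nid1, 35.9 to 6.86) and laminin gamma 1 (Lamc1, 83.9 to 23.9). Col2a1, a fibrillar collagen, rose from 2.15 to 38.4 FPKM.

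Imprinted genes, expressed from 1 parental copy, were called in both directions. Of 28 tested 16 were called higher (57.1%, against 28.6% of all genes tested), 3 of them with a mean of at least 1 FPKM only at day 7, and 6 lower (21.4%, against 34.7%); the reads were not separated by parental copy here. H19, a noncoding RNA, read 1.61, 1.19 and 0.879 FPKM in the mESC libraries and 388, 201 and 224 FPKM at day 7 (log2 fold change 6.88, SE 0.38, adjusted p = 9.02e-12), with day 7 replicate 1 the highest. Nnat, which encodes a membrane protein of the developing brain and lies within Blcap, read 4.72, 4.28 and 3.51 FPKM in the mESC libraries and 362, 631 and 547 FPKM at day 7 (log2 fold change 6.61, SE 0.25, adjusted p = 4.55e-15). Mest read 25.1, 43.8 and 27.7 FPKM in the mESC libraries and 1006, 1228 and 1380 FPKM at day 7 (log2 fold change 5.21, SE 0.48, adjusted p = 3.40e-08) and overlaps Copg2 and Mir335. Sgce, Peg12 and Magel2 rose from 1.81 to 41.3, 4.38 to 79.6 and 0.0307 to 9.39 FPKM, and the neighbour of H19, Igf2, from 0.250 to 2.14 FPKM. Plagl1, Grb10 and Slc38a4 fell (34.9 to 4.68, 5.29 to 0.799 and 98.3 to 35.5 FPKM). Dlk1, Peg3 and Igf2r did not pass the test.

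**Figure D4:**
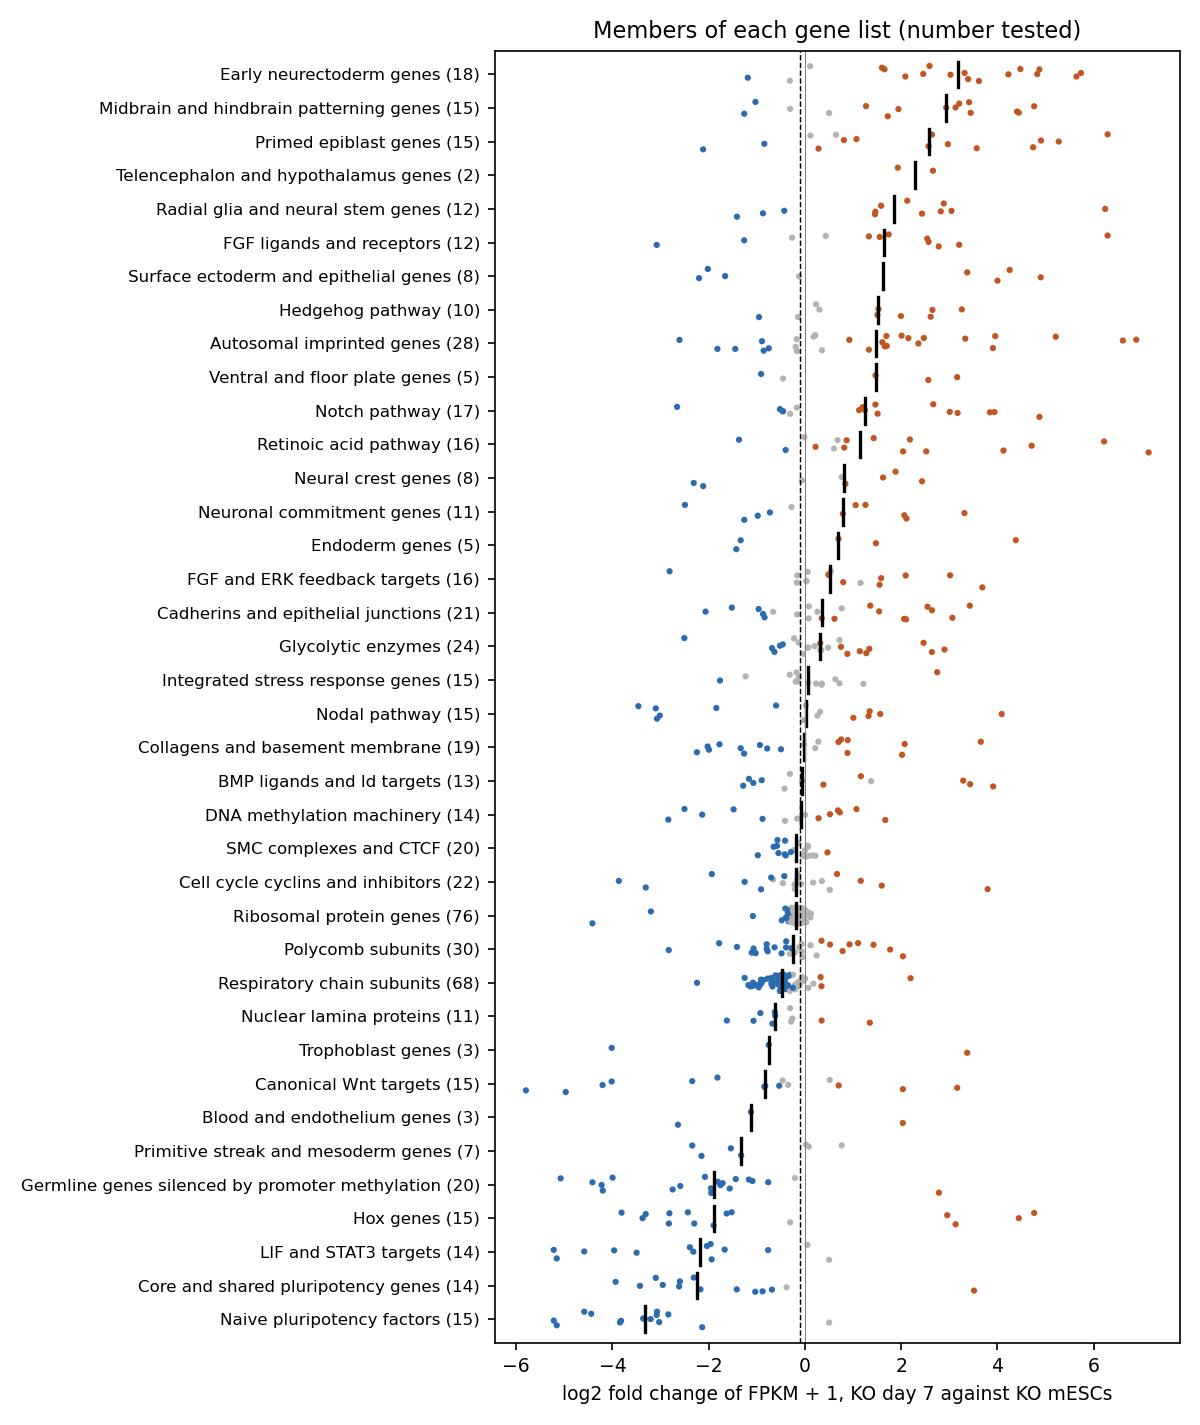
Each point is a tested gene of a list, placed by its log2 fold change (KO day 7 against KO mESCs, on FPKM + 1); orange points were called higher, blue points lower and grey points not called, the black bar is the median of the list and the dashed line the median of all genes tested (-0.09). Naive factors (median -3.33) lie at the bottom and early neurectoderm genes (median 3.17) at the top.

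The 12 called genes with the largest falls, among 3304 eligible, were Cdx1, 2210409E12Rik, Serpinb1a, Tnni1, Tfcp2l1, Klf4, Dazl, Sp5, Obox6, Pglyrp1 and the small nucleolar RNA entries Snora41 and Snora44. 2210409E12Rik, a locus of 377 bases on chromosome 11, read 463, 485 and 621 FPKM in the mESC libraries and 11.4, 10.7 and 11.9 FPKM at day 7 (log2 fold change -5.40, SE 0.18, adjusted p = 5.17e-16). Serpinb1a, an inhibitor of neutrophil proteases, and Tnni1, the slow skeletal troponin I, went from 58.3 to 0.492 and 53.4 to 0.381 FPKM. Obox6, an oocyte-specific homeobox gene, and Pglyrp1, a peptidoglycan recognition protein, went from 65.04 to 1.22 and 54.6 to 1.42 FPKM. The Snora41 entry overlaps Eef1b2 and was listed at 0 in all 3 day 7 libraries, with 56.3, 107 and 61.4 FPKM in mESCs. Snora44 overlaps Snhg12 and read 99.1, 141 and 54.02 FPKM in the mESC libraries and 38, 0 and 0 FPKM at day 7, and its call was lost with the 6 KO libraries alone (adjusted p = 0.0758), with a replicate block (adjusted p = 0.133) and without KO mESC replicate 2, KO day 7 replicate 2 or KO day 7 replicate 3 (adjusted p = 0.0607, 0.0883 and 0.0894).

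In FPKM the largest gains were those of Mif, Mest, Mdk, Crabp1 and Gapdh. Mif, a secreted cytokine, read 1313, 1105 and 1281 FPKM in the mESC libraries and 2889, 3002 and 2999 FPKM at day 7 (log2 fold change 1.27, SE 0.12, adjusted p = 5.41e-09), and Mdk, the growth factor midkine, a relative of Ptn, 142, 146 and 168 FPKM in the mESC libraries and 1069.8, 1229 and 1261 FPKM at day 7 (log2 fold change 2.96, SE 0.35, adjusted p = 5.40e-07). Gapdh rose by 0.32 on the log2 scale (2439.7 to 3043 FPKM), a call lost without KO mESC replicate 1 (adjusted p = 0.0528) or KO day 7 replicate 2 (adjusted p = 0.0575). The largest losses after Dppa5a were those of Mir682, Mir692-1, Rplp1 and Hspa8. The Mir682 and Mir692-1 loci are 96 and 109 bases long, and FPKM of such short loci rests on few positions. The call of Mir682 (12690 to 9589.7 FPKM) was lost without KO mESC replicate 2, KO mESC replicate 3 or KO day 7 replicate 1 (adjusted p = 0.0509, 0.0624 and 0.198). Both Mir calls were lost with libraries scaled to the same sum (adjusted p = 0.158 and 0.0654). Hspa8, a constitutive heat shock protein, went from 4811 to 2966 FPKM (log2 fold change -0.69, SE 0.14, adjusted p = 1.84e-04), and the ribosomal stalk gene Rplp1 from 7692 to 5505 FPKM (log2 fold change -0.48, SE 0.15, adjusted p = 0.00734).

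Of 24 tested genes of glycolysis 9 were called higher (37.5%, against 28.6% of all genes tested) and 5 lower (20.8%, against 34.7%), with a median of 0.32; with libraries scaled to the same sum 14 were higher and 1 lower, with the 6 KO libraries alone 14 were higher and 5 lower, and without KO mESC replicate 3 the number lower was 3. Of the phosphofructokinase genes, Pfkl and Pfkm rose (100.5 to 244 and 16.9 to 38.3 FPKM) and Pfkp, which overlaps Pitrm1, fell (126 to 21.7 FPKM). Eno3 and Eno2 rose from 1.76 to 19.3 and 0.676 to 7.81 FPKM, while the main enolase Eno1 did not pass the test (1517 to 1575 FPKM). The glucose transporter Slc2a1 and the lactate transporter Slc16a3 read 208, 217 and 245 FPKM in the mESC libraries and 637, 502 and 564 FPKM at day 7 and 25.03, 21.4 and 30.4 FPKM in the mESC libraries and 162, 170.4 and 157 FPKM at day 7, respectively. Respiratory chain subunits were lower in 51 of 68 (75.0%) and higher in 3 (1 without KO day 7 replicate 2; median -0.47), with Cox5a going from 778 to 326 FPKM and Cox7a1 from 102 to 20.5 FPKM; the call of Cox7a1 was lost with a pseudocount of 0.1 (adjusted p = 0.0516). With libraries scaled to the same sum 34 were lower and 6 higher, and their median was -0.24. Of 76 ribosomal protein genes 15 were called lower (19.7%, under the 34.7% of all genes tested) and none higher (median -0.19), and the direction of this list turned with libraries scaled to the same sum (4 lower, 6 higher, median 0.03). The number lower also rested on single libraries: it was 4 without KO mESC replicate 3 and 7 without KO day 7 replicate 1 or 3. It was 41 with the 6 KO libraries alone and 30 with a replicate block.

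Among 22 cell cycle genes 4 were called higher (18.2%) and 7 lower (31.8%), shares not above those of all genes tested (28.6% and 34.7%). Of the cyclin D genes, Ccnd2 read 0.427, 0.369 and 0.296 FPKM in the mESC libraries and 15.9, 20.6 and 17.6 FPKM at day 7 (log2 fold change 3.80, SE 0.21, adjusted p = 9.68e-13), and Ccnd3, which overlaps Bysl, fell from 279 to 72.03 FPKM. The inhibitors Cdkn1a (p21) and Cdkn2a (the Ink4a/Arf locus) fell from 158 to 14.8 and 53.3 to 2.76 FPKM, and Cdkn1b (p27) rose from 4.53 to 15.5 FPKM. Of 15 genes of the integrated stress response 1 was called higher, Ddit4 (30.9 to 201 FPKM), and 1 lower, Asns (672 to 198 FPKM). With the 6 KO libraries alone, and with a replicate block, 5 were higher and 2 lower.

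SmcHD1 belongs to the proteins that shape chromosomes, so their genes were listed too. Of 20 tested genes of SMC complexes and CTCF, 9 were called lower (45.0%, against 34.7% of all genes tested) and 1 higher, the higher one being Smchd1, and none reached a log2 fold change of 1. The count depended on the scaling: with libraries scaled to the same sum 1 was lower and 3 higher (median 0.04 in place of -0.18), and 5 were lower without KO mESC replicate 2 or KO day 7 replicate 1. Wapal, which releases cohesin, fell from 54.2 to 26.98 FPKM (log2 fold change -0.98, SE 0.10, adjusted p = 1.72e-08), a call held in all alternatives, while Ctcf did not pass the test (61.9 to 56.3 FPKM). Of 30 Polycomb subunits 8 were called higher (26.7%, against 28.6% of all genes tested) and 14 lower (46.7%, against 34.7%), with a median of -0.24. The number lower was 10 to 15 over the alternatives, and the median was -0.04 with libraries scaled to the same sum. In PRC2, Suz12 read 112, 114 and 91.4 FPKM in the mESC libraries and 31.8, 31.5 and 26.8 FPKM at day 7 (log2 fold change -1.78, SE 0.12, adjusted p = 2.92e-11), and E130012A19Rik (Epop), which tunes PRC2 in ES cells, 556, 773 and 571 FPKM in the mESC libraries and 90.9, 88.6 and 82.7 FPKM at day 7. Eed and Mtf2 fell from 91.5 to 44.3 and 65.6 to 24.01 FPKM, and Ezh2, the catalytic subunit, was higher (88.6 to 113 FPKM, log2 fold change 0.35, SE 0.09, adjusted p = 0.00204). In PRC1, Phc2 read 26.8, 24.8 and 20.5 FPKM in the mESC libraries and 93.6, 106 and 104 FPKM at day 7, Ring1, Cbx2 and Cbx8 rose from 3.93 to 15.9, 18.3 to 40.5 and 2.29 to 5.24 FPKM, and Cbx7, Rybp and Rnf2 fell (53.1 to 24.5, 50.8 to 23.8 and 55.3 to 32.1 FPKM). Of 11 lamina genes 6 were called lower (54.5%) and 2 higher (18.2%; 1 gene without KO mESC replicate 1 or without KO day 7 replicate 1 or 2), the lower including the lamin B receptor (Lbr, 102 to 48.1 FPKM) and Lemd3 (11.1 to 2.99 FPKM).

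WT cells went through the same steps, and the change in KO cells was set beside theirs. Of the 3004 genes called in KO cells whose log2 fold change was 1 or more in size, 2978 (99.1%) changed with the same sign in WT cells, whose libraries are not shared with the KO comparison. Because genes were chosen by their mean in the 6 KO libraries, genes high only in WT cells were not tested. The difference between the changes was tested as an interaction, and 156 genes were called (1.35% of those tested), 80 with a more positive and 76 with a more negative change in KO cells. The count was 203 with the filter set over all 24 libraries, 291 with no filter on low values and 24 with a replicate block within genotype, and 92 to 98 without KO mESC replicate 3, WT day 7 replicate 2, KO day 7 replicate 1 or KO day 7 replicate 3, each left out alone. Of the 26 genes with opposite signs 16 were among them. Markers of some other cell types differed with the genotype at day 7. The 6 endoderm markers summed to 20.1 to 51.1 FPKM in WT day 7 libraries, with Foxa2 from 15.1 to 37.8 and Sox17 from 2.58 to 8.44 FPKM, against sums of 0.6997 to 1.48 FPKM in KO day 7 libraries. The 6 mesoderm markers summed to 60.9 to 157.5 FPKM in WT and 3.13 to 6.01 FPKM in KO day 7 libraries. Sums at day 7 also lay apart between WT and KO for early neurectoderm (113 to 137 and 167 to 177 FPKM). The same held for trophoblast (8.22 to 12.15 and 0.394 to 3.22 FPKM) and blood and endothelium (9.18 to 15.3 and 5.18 to 8.22). WT and KO sums overlapped for mESC markers (408 to 575 and 426.5 to 582.5 FPKM) and glia markers (99.4 to 110.7 and 67.0 to 125.9). Neural crest sums (7.64 to 8.13 and 5.47 to 9.03 FPKM) and surface ectoderm sums (3.32 to 3.52 and 2.33 to 3.52) overlapped too. Any part of these cell types in the differences named next was not tested. The difference was called for none of the 15 naive factors, for 1 of 20 germline genes, for 4 of 15 midbrain and hindbrain genes and for 4 of 7 mesoderm genes.

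By the naming rule, 6 genes with a more positive change in KO cells were Tal2, Wnt1, En1, Gm3002, Lhx2 and Gm2694. Wnt1 was at 0 in the mESCs of both genotypes and had means of 11.6 FPKM in KO and 0.376 FPKM in WT cells at day 7. En1 went from 0.847 to 14.9 FPKM in KO cells and from 0.288 to 0.498 FPKM in WT cells. Tal2 had a mean of 20.6 FPKM in KO and 1.96 FPKM in WT cells at day 7. The 6 with a more negative change were T, Cdx2, Meox1, Mira, Gli1 and Cabp7. T went from 12.1 to 1.59 FPKM in KO cells and from 7.798 to 103 FPKM in WT cells, opposite directions. Cdx2 fell from 19.2 to 0.221 FPKM in KO cells and went from 7.04 to 5.13 FPKM in WT cells. Gli1, the transcriptional target and effector of hedgehog signalling, went from 0.841 to 1.199 FPKM in KO and from 0.840 to 17.6 FPKM in WT cells, and Cabp7, a neuronal calcium-binding protein, from 1.88 to 1.53 and 1.78 to 17.3 FPKM. Mira, a noncoding transcript of the Hoxa cluster at chr6:52164490-52165287 in mm9, went from 21.2 to 0.0927 and 5.58 to 2.19 FPKM. Meox1, a mesodermal homeobox gene, went from 2.31 to 0.124 and 2.93 to 15.97 FPKM. The calls of Meox1, Lhx2 and Gm2694 were lost when any of several single libraries was left out. Those of T and Wnt1 were lost with a replicate block, those of En1 and Cabp7 with the block and with a pseudocount of 0.1, and that of En1 also with the 12 mESC and day 7 libraries alone.

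**Figure D5:**
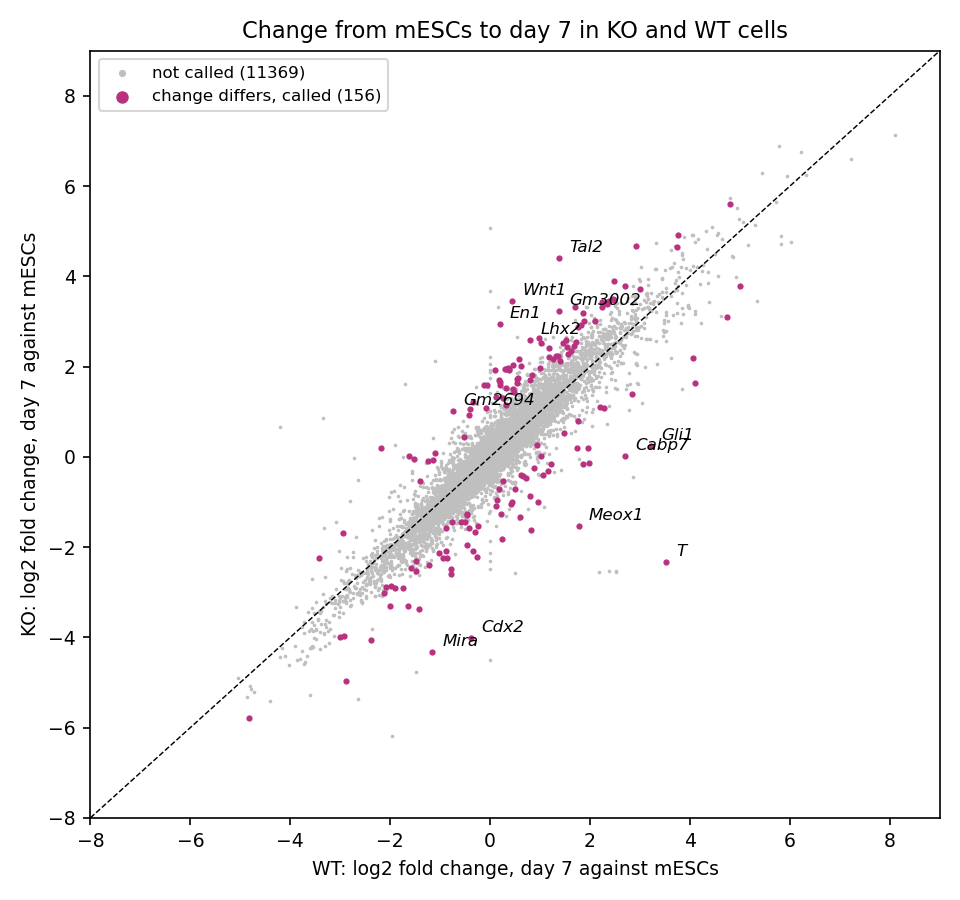
Each point is 1 of 11525 genes, placed by the log2 fold change from mESCs to day 7 in WT cells (horizontal axis) and in KO cells (vertical axis); the dashed line marks equal changes and magenta points are the 156 genes whose change differed. Most genes lie along the line, Tal2, Wnt1 and En1 above it, and T, Meox1 and Gli1 below it.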

How the data were processed

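The authors sequenced RNA as 80-base single-end reads of stranded libraries and deposited FPKM values per gene and library in a single file. Their processing notes name Trim Galore 0.6.6, TopHat2 2.1.1, Cufflinks, Cuffdiff and the mm9 genome. Reads of ribosomal RNA and the X chromosome were removed by the authors. Read totals per library are not given in the sources used here, so the depth is unknown beyond the relative read numbers in the text. It has 36 FPKM columns, of which 12 belong to no sample described here and were not used. The authors' status column was used only to leave out failed estimates.

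Here, log2(FPKM + 1) of the 24 libraries in 8 groups was fitted in R 4.3.3 (data.table package 1.17.8) by limma 3.58.1 with statmod 1.5.0, using trend and robust variance estimates, and genes with an adjusted p (Benjamini-Hochberg, two-sided) under 0.05 were called. Fold changes are on the log2(FPKM + 1) scale, which understates the change of low genes. The difference between KO and WT was the interaction contrast of the same fit. Same-numbered replicates did not deviate together (correlations of -0.05, -0.02 and -0.03 in KO cells), so no pairing was used. For the JB4/EI7HZ2 mESCs and cells differentiated from them the study gives the 3 RNA-seq replicates as independent biological experiments, without naming the KO cells there, and the p-values measure the spread between these samples. With 3 against 3 libraries an exact permutation test of 1 gene cannot go below 0.1, and none was used.

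Named genes were Smchd1, the 12 called genes that rose most and the 12 that fell most (a mean of 5 FPKM or more in one group, groups not overlapping, 1 symbol), the 5 called genes with the largest gain and the 5 with the largest loss in mean FPKM, up to 4 members of each list with the largest change, members called against the majority, further members described by role, and the 6 genes with the most positive and the 6 with the most negative difference between KO and WT. The members and lists were chosen with earlier results of these data known. Alternatives were another pseudocount (0.1), no filter or a filter over 24 libraries, scaling of libraries, fewer libraries in the fit, a replicate block and leaving out each library. Promoter windows are from RefSeq. Values of some list members are not reported here.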

Additional observations from a re-analysis of the deposited data

Results flagged for a closer look

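For 12 genes the change from mESCs to day 7 differed between KO and WT cells in the interaction test (limma). The differences, KO minus WT on the log2(FPKM + 1) scale, were -5.85 for T, -3.63 for Cdx2, -3.31 for Meox1, -3.17 for Mira, -2.99 for Gli1 and -2.68 for Cabp7. They were 3.02 for Tal2, 3.00 for Wnt1, 2.75 for En1, 1.85 for Gm3002, 1.80 for Lhx2 and 1.75 for Gm2694. The calls of Cdx2, Gli1, Gm3002, Mira and Tal2 held under every alternative run. For Meox1 the call was lost without WT mESC replicate 1 or 3, any KO mESC replicate, WT day 7 replicate 2 or 3, or any KO day 7 replicate (adjusted p up to 0.122). For Lhx2 it was lost without WT mESC replicate 3, KO mESC replicate 1 or 3, WT day 7 replicate 2 or 3, or KO day 7 replicate 1 or 2 (adjusted p up to 0.117). For Gm2694 it was lost without WT mESC replicate 3, KO mESC replicate 1 or 2, WT day 7 replicate 2, or KO day 7 replicate 1 or 3 (adjusted p up to 0.0867). Genotype and cell line cannot be told apart in these differences.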

How the results depend on the processing

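The number of genes called between day 7 and mESCs in KO cells (7303) ranged from 6692 to 8696 over the alternatives. Of 384 called genes named by the rule, 327 kept their call under every alternative run, and none turned its direction. The number of genes whose change differed between KO and WT (156) was less stable: 101 with the 12 mESC and day 7 libraries alone, 98 with a pseudocount of 0.1, 291 with no filter on low values and 92 to 190 when 1 library was left out. With a replicate block within genotype it was 24, against 7387 for the KO change with a block; the numbers do not pair the samples (0 of 3 KO replicates correlated best with their own number). Under the block the calls of T, Wnt1, En1, Cabp7, Meox1, Lhx2 and Gm2694 were lost. Those of Cabp7, En1, Lhx2 and Gm2694 were also lost with a pseudocount of 0.1, and those of En1, Lhx2, Gm2694 and Meox1 with the 12 libraries alone. With libraries scaled to the same sum 1 of the 12 named calls was lost. The cause was not tested. Counts of ribosomal, SMC, glycolytic and respiratory chain genes depend on the scaling of libraries, and those of ribosomal, glycolytic and stress response genes also on the libraries fitted, as given with each. Depth limits the genes of low FPKM, whose read counts are not known.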
